A study of Drosophila melanogaster with 4 samples.

Results

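The genes described here are the subunit genes of respiratory complexes III, IV and V, taken by their symbols as those beginning with UQCR, with COX and a digit from 4 to 8, or with ATPsyn, mt:Co, mt:Cyt-b or mt:ATPase. The rule gave 46 of the 13771 genes with a transcript in the count table, 10 for complex III, 19 for complex IV and 17 for complex V. By symbol, 13 nuclear genes end in L and are called paralogs, 25 are canonical nuclear genes, 2 end in L2 (COX6AL2 and COX7AL2) and were counted with the canonical genes as the rule states, and 6 are mitochondrially encoded. The rule does not take subunits with other symbols, such as blw, sun, levy, cype, RFeSP and Cyt-c1, which are described at the end. RNA was sequenced from the testes of 5-day-old sws1 males and of 5-day-old wild-type (WT) males of the Canton S strain, with 2 libraries per genotype, each from pooled testes. sws1 is a nonsense allele of Swiss cheese (sws), the fly ortholog of human PNPLA6, which encodes a phospholipase of lysophosphatidylcholine and phosphatidylcholine. Nothing in the sources used here says that sws1 and Canton S share a genetic background, so the allele and the background cannot be told apart.

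Complex III passes electrons from ubiquinol to cytochrome c, complex IV passes them from cytochrome c to oxygen, and both pump protons across the inner mitochondrial membrane. Complex V, the ATP synthase, lets the protons flow back through its membrane part and makes ATP in its catalytic head. A few subunits of each complex are encoded in mitochondrial DNA and the rest in the nucleus, so both genomes supply every one of these complexes. In Drosophila spermatids the mitochondria fuse into a large body, the nebenkern, which then elongates along the growing axoneme, and many nuclear genes for mitochondrial proteins have a paralog used mainly in the testis.

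The sws1 libraries held 2364636 and 2218335 counts and the WT libraries 4498060 and 2692475. In CPM, the counts scaled to library size with TMM factors, sws itself had 66.2 and 78.0 CPM in sws1 and 155.6 and 195.7 CPM in WT, with a log2 fold change (log2FC, sws1 over WT) of −1.28 (SE, its standard error, 0.15, edgeR adjusted p = 2.12e-06). A list of 14 spermatid markers summed to 11040 and 11807 CPM in sws1 and 16768 and 16299 CPM in WT, with 9 called lower and 1 higher. Calls are defined below, and 11.5% of all genes were called lower and 9.38% higher. The 12 spermatocyte markers summed to 3636 and 3641 CPM in sws1 and 4643 and 4746 CPM in WT, with 4 called lower. The 4 spermatogonia markers found summed to 53.9 and 74.1 CPM in sws1 and 80.8 and 98.6 CPM in WT, with 1 called lower. Each of these germline markers had counts in both genotypes, as the testis label requires. The 5 cyst cell markers summed to 123.7 and 154.7 CPM in sws1 and 121.7 and 114.3 CPM in WT, with 1 called lower and 1 higher. Accessory gland markers, from a tissue outside the testis, summed to 1529 and 583 CPM in sws1 and 68.2 and 77.5 CPM in WT. Those of the ejaculatory duct and bulb summed to 323.2 and 261.1 CPM in sws1 and 84.6 and 78.3 CPM in WT. Hemocyte markers overlapped, with 262.2 and 274.6 CPM in sws1 and 399.3 and 245.4 CPM in WT. The summed markers of muscle (1226 and 1070 CPM in sws1, 930 and 1026 CPM in WT) and of fat body (680 and 612 CPM in sws1, 353 and 310 CPM in WT) lay above WT in both sws1 libraries. The part of these markers in the results below was not tested. In whole testes, fewer cells of a type and less RNA per cell cannot be told apart.

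Of the 46 subunit genes, 44 had enough counts for the test, and 14 of them were lower in sws1 while 0 were higher. A gene was called where edgeR's quasi-likelihood test across 9634 genes gave an adjusted p under 0.05 with a log2FC beyond ±0.3, and of all these genes 11.5% were called lower and 9.38% higher. The called share of the subunit genes was 31.8%. At an unadjusted p under 0.05, edgeR gave 21 subunit genes with a negative and 0 with a positive log2FC. The share of all genes at that threshold was not taken, so this count has no background to be read against. At the adjusted p and log2FC thresholds, DESeq2 called 11 subunit genes lower and 0 higher, where it called 5.53% of all genes lower and 3.18% higher. The log2FC was negative for 35 of the 44 genes, with a median of −0.24 against 0.02 for all genes tested, and ran from −0.95 for UQCR-6.4L to 0.27 for COX4. Both sws1 libraries lay below both WT libraries for 24 subunit genes and above both for 6, where 28.9% and 31.3% of all tested genes did so. With WT replicate 1 left out, 7 subunit genes were called lower (8.02% of all genes). The count was 10 without sws1 replicate 2 (10.4% of all genes), 10 without WT replicate 2 (9.64%) and 10 with upper-quartile scaling (9.74%). Called genes had between 102 and 67119 counts in a library.

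The calls were uneven among the classes. Of the 13 paralogs, 7 were lower, with a median log2FC of −0.32. Of the 5 tested mitochondrially encoded genes, 4 were lower, with a median of −0.34. Of the 26 tested canonical genes, 3 were lower, with a median of −0.05, and without COX6AL2 the count was 2 of 25. The share called among the canonical genes was thus near the 11.5% of all genes. By complex, 3 of 10 genes of complex III, 9 of 18 of complex IV and 2 of 16 of complex V were lower, with medians of −0.25, −0.30 and −0.04. For complex V the share, 12.5%, was near that of all genes. The differences between classes and between complexes were not tested. The 2 untested genes were COX7AL2, with 1 and 6 counts in sws1 and 11 and 8 in WT, and mt:ATPase8, with 1 and 1 counts in sws1 and 5 and 3 in WT.

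**Figure D1:**
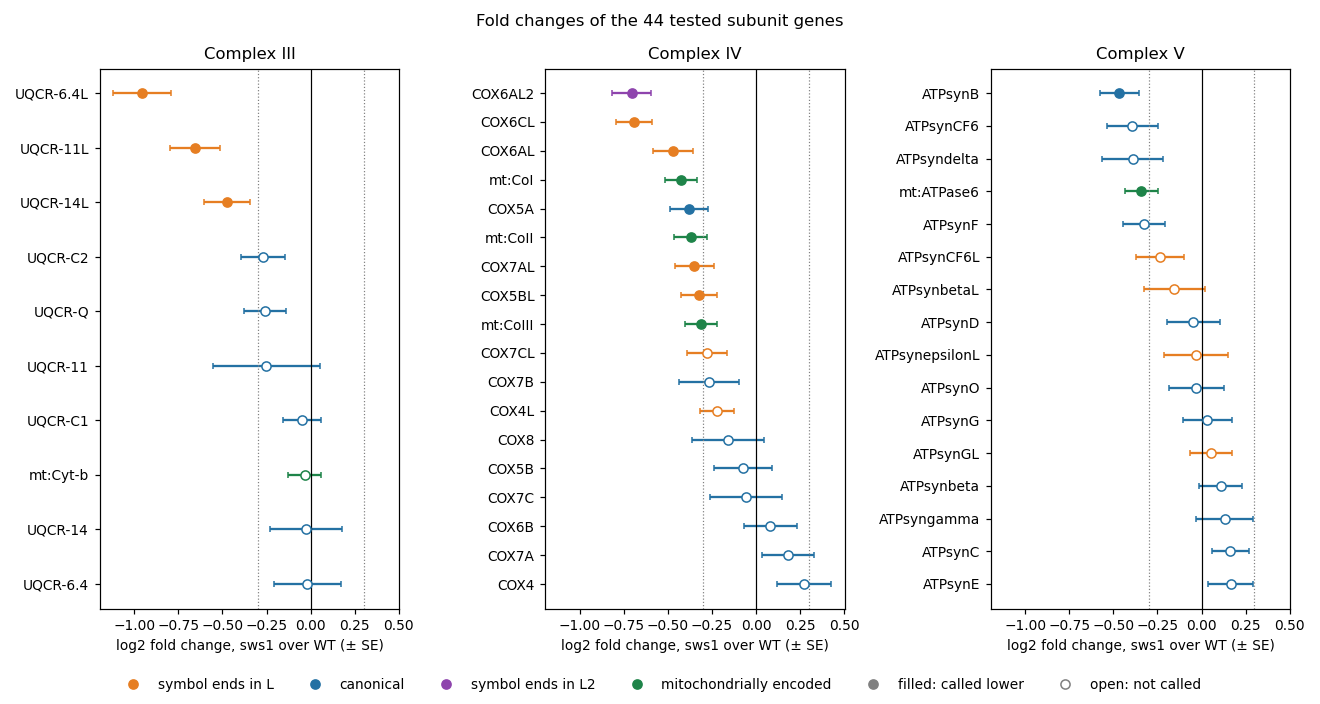
Log2 fold change, sws1 over WT, of the 44 tested subunit genes by complex, with its standard error as the bar; filled points are genes called lower, dotted lines mark ±0.3, and colours give the class. All 3 paralogs of complex III and 4 of the 6 of complex IV are filled, while the 4 paralogs of complex V are open, and no gene is called higher.

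Of the 3 complexes, complex IV had the lowest summed level relative to WT. All complex IV genes together had 22258 and 22244 CPM in sws1 and 29104 and 28899 CPM in WT, so that the sws1 mean was 76.7% of the WT mean. Complex V genes had 3659 and 3466 CPM in sws1 and 4121 and 3917 CPM in WT, or 88.6%. Complex III genes had 5326 and 4956 CPM in sws1 and 5313 and 5610 CPM in WT, and the libraries of the genotypes overlapped. In these sums 1 gene weighs heavily, since mt:CoI alone made up 37.6% and 38.0% of the CPM of all subunit genes in sws1 and 40.9% and 40.8% in WT. Among nuclear genes only, the sums were 81.5% of WT for complex III, 79.3% for complex IV and 94.3% for complex V, with overlapping libraries for complex V. The 46 genes together took 3.31% and 3.17% of all counts in the sws1 libraries and 3.65% and 3.65% in the WT libraries. With 2 libraries against 2 an exact two-sided permutation test cannot go below 0.333, so the sums were given without a test.

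**Figure D2:**
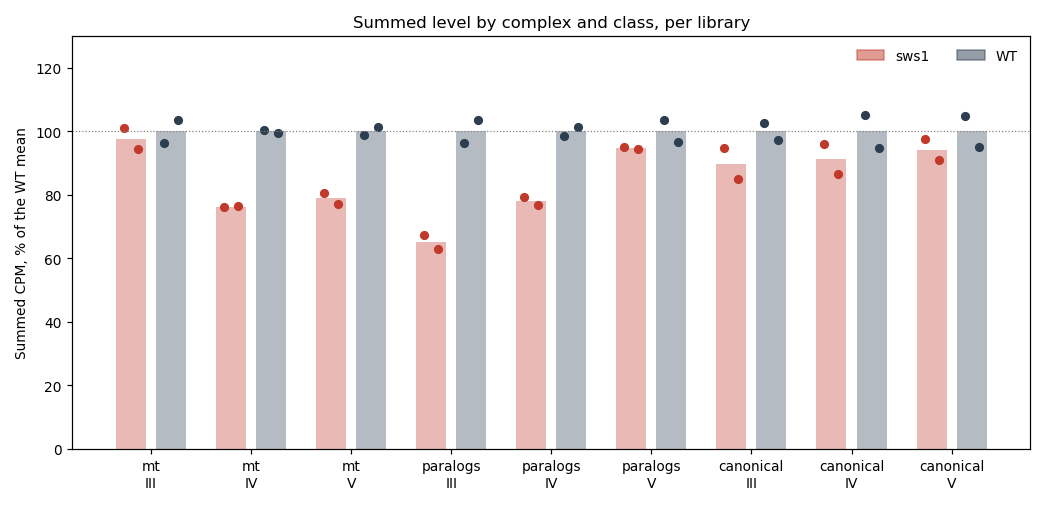
Summed CPM of the mitochondrially encoded (mt), paralog and canonical genes of each complex (the 2 genes ending in L2 left out), as a percentage of the WT mean; points are single libraries and bars are means. Both sws1 libraries lie below both WT libraries for the mt genes of complexes IV and V for the paralogs of all 3 complexes and for the canonical genes of complex III, with the lowest bar, 65.1%, for the complex III paralogs.

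Among the complex III genes of the 46, all 3 paralogs fell and no canonical gene was called. RFeSP, outside the 46, was called higher (log2FC 0.46), while Cyt-c1 and Cyt-c1L were not called. UQCR-6.4L (FBgn0262842, 3L, 16566750 to 16567300, BDGP6.54), a paralog of a small accessory subunit, had 40.7 and 50.1 CPM in sws1 and 89.1 and 86.5 CPM in WT. Its log2FC of −0.95 (SE 0.16, edgeR adjusted p = 0.000201) was the largest decrease among the 44 genes. UQCR-11L (FBgn0050354, 2R, 8677219 to 8677661), the paralog of the hinge subunit between cytochrome c1 and cytochrome c, had 79.4 and 73.2 CPM in sws1 and 118.0 and 122.5 CPM in WT, a log2FC of −0.65 (SE 0.14, edgeR adjusted p = 0.00195). UQCR-14L (FBgn0039576, 3R, 28294048 to 28294550) had 154.8 and 132.9 CPM in sws1 and 186.4 and 214.1 CPM in WT, a log2FC of −0.47 (SE 0.13, edgeR adjusted p = 0.0114). For each of the 3 genes the libraries of the genotypes did not overlap. The call of UQCR-14L was lost with DESeq2 (adjusted p = 0.0569) and without sws1 replicate 2 or WT replicate 2 (edgeR, adjusted p = 0.0981 and 0.0953). UQCR-11L overlaps Acsl on the same strand, and UQCR-6.4L overlaps Mipp1 on the opposite strand.

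None of the canonical partners of these paralogs was called. UQCR-6.4 had 45.1 and 33.6 CPM in sws1 and 42.3 and 37.2 CPM in WT, with a log2FC of −0.02 (SE 0.19). UQCR-14 had 45.9 and 30.5 CPM in sws1 and 42.5 and 34.8 CPM in WT, a log2FC of −0.03 (SE 0.21). UQCR-11 had 15.6 and 8.28 CPM in sws1 and 12.7 and 16.4 CPM in WT, a log2FC of −0.25 (SE 0.30). For each of them the libraries of the genotypes overlapped, and the direction of all 3 turned when sws1 replicate 2 was left out (log2FC 0.17, 0.23 and 0.12). The most abundant canonical gene of the complex per kilobase of exon in WT was UQCR-Q, which encodes a ubiquinone-binding subunit, with 178.8 and 166.5 CPM in sws1 and 215.5 and 196.9 CPM in WT (log2FC −0.26, edgeR adjusted p = 0.141). The genes of the core proteins, UQCR-C1 (log2FC −0.05) and UQCR-C2 (log2FC −0.27, edgeR adjusted p = 0.128), were not called either. Per kilobase of the union of annotated exons, UQCR-C1 was above UQCR-Q in both sws1 libraries. That order depends on the length used, since the union of UQCR-Q was 975 bp and its transcripts were of 425 to 746 bp.

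Among the mitochondrially encoded genes, the 3 complex IV core subunits and mt:ATPase6 of complex V fell by similar amounts, and mt:Cyt-b of complex III was not called. mt:CoI (mitochondrial genome, 1474 to 3009), the catalytic subunit of complex IV, had 11743 and 11643 CPM in sws1 and 15774 and 15666 CPM in WT, a log2FC of −0.43 (SE 0.09, edgeR adjusted p = 0.00165). It was the transcript with the most counts in the table in 3 libraries and ranked 2 in sws1 replicate 1. mt:CoII (3083 to 3767), which takes electrons from cytochrome c, had 2124 and 2016 CPM in sws1 and 2608 and 2743 CPM in WT, a log2FC of −0.37 (SE 0.09, edgeR adjusted p = 0.00638). mt:CoIII (4736 to 5524) had 4843 and 5170 CPM in sws1 and 6334 and 6100 CPM in WT, a log2FC of −0.31 (SE 0.09, edgeR adjusted p = 0.0182). mt:ATPase6 (4062 to 4736), which forms the proton channel of the ATP synthase, had 1182 and 1136 CPM in sws1 and 1450 and 1488 CPM in WT, a log2FC of −0.34 (SE 0.09, edgeR adjusted p = 0.0116). The sws1 libraries of all 4 genes lay below the WT libraries.

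mt:Cyt-b (10499 to 11635), the only complex III subunit encoded in mitochondrial DNA and the one that binds ubiquinol, had 4286 and 4015 CPM in sws1 and 4091 and 4402 CPM in WT. Its log2FC was −0.03 (SE 0.09, edgeR adjusted p = 0.842), with overlapping libraries, and it turned to 0.02 with upper-quartile scaling. The ratio of mt:CoI to mt:Cyt-b, which does not depend on the scaling between libraries, was 2.74 and 2.90 in sws1 and 3.86 and 3.56 in WT. For mt:CoII the ratio was 0.496 and 0.502 in sws1 and 0.638 and 0.623 in WT, for mt:ATPase6 0.276 and 0.283 in sws1 and 0.355 and 0.338 in WT, and for mt:CoIII 1.13 and 1.29 in sws1 and 1.55 and 1.39 in WT. The genotypes did not overlap in any of the 4 ratios, which all share mt:Cyt-b. Ratios were not taken for pairs of other genes, so this count has no background to be read against. The 4 genes that fell lie on the same strand within positions 1474 to 5524, and mt:Cyt-b lies apart from them on that strand. Whether position bears on the decrease was not tested, and positions of the mitochondrially encoded complex I genes were not compared. mt:ATPase8, of 162 bp, overlaps mt:ATPase6 and mt:ATPase6 overlaps mt:CoIII, so reads across these borders can be lost or shared in the counting. The number of mitochondrially encoded genes called was 2 with upper-quartile scaling, and 1 without WT replicate 1 or without WT replicate 2.

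**Figure D3:**
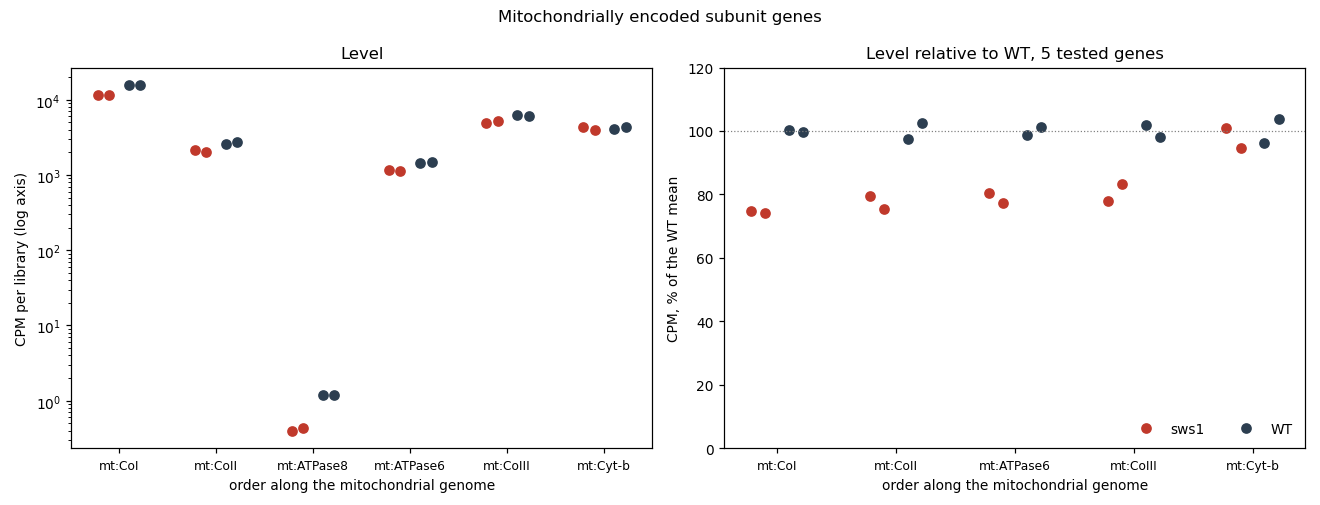
CPM of the 6 mitochondrially encoded genes in each library on a log axis (left) and, for the 5 tested genes, as a percentage of the WT mean (right), in their order along the mitochondrial genome. The sws1 points lie below the WT points for mt:CoI, mt:CoII, mt:ATPase6 and mt:CoIII and among them for mt:Cyt-b.

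In complex IV, 4 of the 6 paralogs fell, and the other 2 had negative log2FC that missed the threshold. COX6CL (FBgn0051644, 2L, 5817890 to 5818443), a paralog of cype, had 359.1 and 387.9 CPM in sws1 and 581.6 and 625.9 CPM in WT, a log2FC of −0.69 (SE 0.10, edgeR adjusted p = 4.29e-05). COX6AL (FBgn0050093, 2R, 15944028 to 15944567), a paralog of levy, had 188.3 and 187.0 CPM in sws1 and 261.3 and 258.7 CPM in WT, a log2FC of −0.47 (SE 0.11, edgeR adjusted p = 0.0047). These are 2 of the 5 subunit genes that stayed called in all 11 alternative fits to genes at a log2FC beyond ±0.3, with UQCR-11L, UQCR-6.4L and COX6AL2. COX6AL overlaps Cyp4aa1 on the same strand, and COX5BL, given below, overlaps Trmt6 on the opposite strand. COX7AL (FBgn0037579, 3R, 8343669 to 8344310) had 289.3 and 269.4 CPM in sws1 and 347.8 and 364.4 CPM in WT, a log2FC of −0.35 (SE 0.11, edgeR adjusted p = 0.0233). COX5BL (FBgn0031831, 2L, 6559431 to 6560133), a paralog of the zinc-binding subunit and a neighbour of COX5B, had 363.5 and 353.9 CPM in sws1 and 456.1 and 440.7 CPM in WT, a log2FC of −0.32 (SE 0.10, edgeR adjusted p = 0.0285).

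COX4L (FBgn0033020, 2R, 5353994 to 5354723), whose level per kilobase was the highest of the nuclear subunit genes, had 1021 and 983 CPM in sws1 and 1150 and 1186 CPM in WT, a log2FC of −0.22 (SE 0.10, edgeR adjusted p = 0.106). COX7CL (FBgn0265342, 2R, 10050348 to 10050874) had 253.4 and 219.7 CPM in sws1 and 282.9 and 291.2 CPM in WT, a log2FC of −0.28 (SE 0.11, edgeR adjusted p = 0.0905). Both sws1 libraries of each lay below both WT libraries, but neither passed the test. The sum of the 6 complex IV paralogs was 2475 and 2401 CPM in sws1 and 3080 and 3167 CPM in WT. The calls of COX5BL and COX7AL were each lost under 5 of 11 alternatives, DESeq2 among them, and over all 3 complexes 4 paralogs were called with DESeq2, without sws1 replicate 2 or without WT replicate 2.

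COX6AL2 (FBgn0036830, 3L, 18908260 to 18914150), another gene of the COX6A family, had 217.9 and 239.3 CPM in sws1 and 369.4 and 376.1 CPM in WT, a log2FC of −0.71 (SE 0.11, edgeR adjusted p = 6.74e-05). The log2FC of its 2 annotated transcripts had opposite signs. The short transcript (FBtr0309797, 18912974 to 18914150, 4 exons) had 215 and 153 counts in sws1 and 1140 and 727 in WT, a log2FC of −1.84 (SE 0.16). The long transcript (FBtr0299821, 18908260 to 18914150, 7 exons) had 331 and 396 counts in sws1 and 432 and 234 in WT, a log2FC of 0.67 (SE 0.17). The short transcript held 39.4% and 27.9% of the gene's counts in sws1 and 72.5% and 75.7% in WT. In the test across transcripts, edgeR gave adjusted p = 0.0994 for the short and 0.198 for the long one, and DESeq2 gave 4.42e-23 and 0.0177. The transcripts share 956 exon bases, and only 53 bases are particular to the short one. Of the 2121 bases particular to the long one, which has 3077 in all, nearly all lie in the 2098 bases it shares with exons of Ir75d, an ionotropic receptor gene on the same strand. Ir75d had 108 and 95 counts in sws1 and 52 and 71 in WT, a log2FC of 1.15 (SE 0.34, edgeR adjusted p = 0.0471). Reads of Ir75d and of the long transcript cannot be told apart over the shared bases, so the sum for COX6AL2 may include reads of Ir75d. How such reads were counted is not given in the sources used here. COX6AL2 also overlaps Prp6 on the opposite strand.

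**Figure D4:**
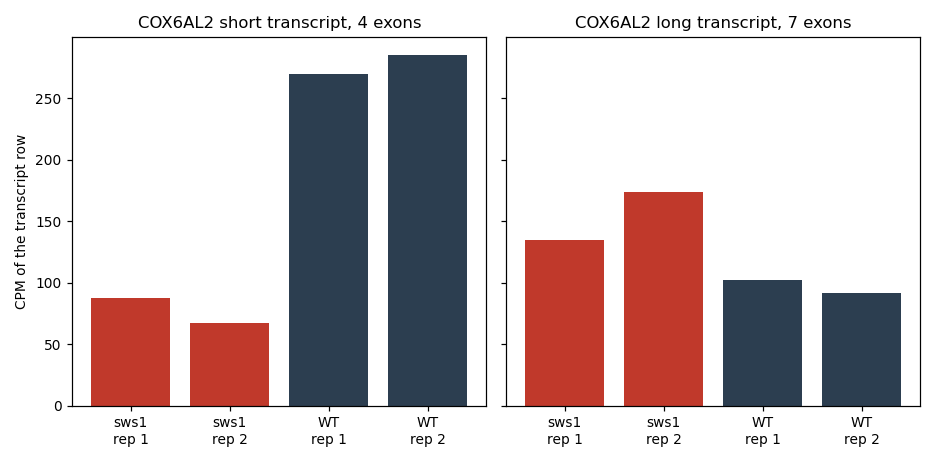
CPM of the 2 transcript rows of COX6AL2 in each library, sws1 left and WT right. The short transcript stands at 87.6 and 67.1 CPM in sws1 and 270.1 and 285.5 CPM in WT, and the long transcript is higher in both sws1 libraries than in either WT library.

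Among the 8 canonical genes of complex IV, COX5A alone was called. COX5A (FBgn0019624, 3R, 11819359 to 11820299), a matrix-side subunit and the most abundant canonical gene of the complex per kilobase, had 325.2 and 298.1 CPM in sws1 and 418.8 and 392.2 CPM in WT, a log2FC of −0.38 (SE 0.11, edgeR adjusted p = 0.0133). It has no paralog ending in L among the 46 genes, and it overlaps glo on the opposite strand. Its call was lost without sws1 replicate 2 (edgeR adjusted p = 0.0634) and without WT replicate 1 (0.139). COX4, the partner of COX4L, had 79.0 and 92.4 CPM in sws1 and 75.7 and 65.4 CPM in WT, with the highest log2FC of the 44 genes, 0.27 (SE 0.15, edgeR adjusted p = 0.229). COX7A had 112.5 and 91.5 CPM in sws1 and 89.1 and 91.2 CPM in WT, a log2FC of 0.18 (SE 0.15). COX5B had 70.2 and 56.2 CPM in sws1 and 69.1 and 63.8 CPM in WT, a log2FC of −0.07 (SE 0.16). COX7C had 45.1 and 29.2 CPM in sws1 and 41.1 and 36.0 CPM in WT, a log2FC of −0.06 (SE 0.21). The remaining genes, COX6B, COX7B and COX8, had log2FC between −0.27 and 0.08.

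Among the complex V genes of the 46, ATPsynB was the only nuclear gene called, and none of the 4 paralogs was. Outside the 46, blw was called higher (log2FC 0.54) and sun lower (log2FC −0.59). ATPsynB (FBgn0019644, 3L, 9729999 to 9731224), a subunit of the peripheral stalk that holds the catalytic head in place, had 351.5 and 312.1 CPM in sws1 and 491.2 and 424.7 CPM in WT. Its log2FC was −0.47 (SE 0.11, edgeR adjusted p = 0.00408), and −0.35 without WT replicate 1, where the call was lost (edgeR adjusted p = 0.102). In WT it was also the most abundant canonical gene of the complex per kilobase, while in sws1 replicate 2 ATPsynF was above it. ATPsynCF6, another stalk subunit, had 81.4 and 75.0 CPM in sws1 and 108.8 and 95.9 CPM in WT, a log2FC of −0.39 (SE 0.15, edgeR adjusted p = 0.061). A further 2 genes, ATPsynF of the membrane part (log2FC −0.33, edgeR adjusted p = 0.0545) and ATPsyndelta of the central stalk (log2FC −0.39, edgeR adjusted p = 0.114), had an unadjusted p under 0.05 without passing, and were named after their values were seen. ATPsynbeta (chromosome 4, 1031484 to 1034917), the catalytic subunit, had 473.6 and 358.3 CPM in sws1 and 388.9 and 382.8 CPM in WT, a log2FC of 0.11 (SE 0.12). ATPsynG had 118.1 and 112.9 CPM in sws1 and 121.0 and 104.1 CPM in WT, a log2FC of 0.03 (SE 0.14). The other canonical genes, ATPsynC of the membrane ring, ATPsynD, ATPsynE, ATPsynO and ATPsyngamma, had log2FC between −0.05 and 0.16.

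The 4 paralogs of complex V had log2FC between −0.24 and 0.05. ATPsynGL (2L, 7747275 to 7747874) had 172.0 and 177.8 CPM in sws1 and 167.6 and 169.5 CPM in WT, a log2FC of 0.05 (SE 0.12). ATPsynCF6L (3L, 5011444 to 5012133) overlaps Con on the same strand. ATPsynCF6L had 119.7 and 129.9 CPM in sws1 and 157.9 and 135.0 CPM in WT, a log2FC of −0.24 (SE 0.13, edgeR adjusted p = 0.232). ATPsynbetaL (3L, 16097834 to 16100088) had 53.1 and 42.3 CPM in sws1 and 52.4 and 54.0 CPM in WT, a log2FC of −0.15 (SE 0.17). ATPsynepsilonL (3R, 10121773 to 10122320), a paralog of the central-stalk gene sun, had 47.5 and 38.8 CPM in sws1 and 48.4 and 39.1 CPM in WT, a log2FC of −0.03 (SE 0.18). Their median log2FC was −0.09, against −0.65 for the 3 paralogs of complex III and −0.34 for the 6 of complex IV, and the libraries of the genotypes overlapped for 2 of the 4 genes. 

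For 10 paralogs the gene of the same symbol without the L is also among the 46, which allows a comparison within a pair. Per kilobase of the union of all annotated exons, the paralog was more abundant than its partner in all 4 libraries for 9 of the 10 pairs, and less abundant for ATPsynbetaL. The union can be longer than the transcript that holds most counts, so these levels and the shares below depend on the length used. For UQCR-6.4 the union was 561 bp, while a transcript of 324 bp held 91% and 87% of the counts in sws1 and 89% and 87% in WT. In CPM, UQCR-6.4 was above UQCR-6.4L in sws1 replicate 1 (45.1 against 40.7). COX4L was 19.7-fold above COX4 in sws1 and 27.9-fold above it in WT, and UQCR-11L was 23.3-fold above UQCR-11 in sws1 and 30.1-fold above it in WT. These folds are raised by the exon unions of the partners, 1231 bp for COX4 and 1613 bp for UQCR-11. Their leading transcripts were of 731 bp and 416 bp. The WT mean was 1168 CPM for COX4L and 70.5 CPM for COX4, and 120.2 CPM for UQCR-11L and 14.6 CPM for UQCR-11. UQCR-6.4L was 1.50-fold above UQCR-6.4 in sws1 and 2.87-fold in WT, the smallest excess in sws1. ATPsynCF6L was 1.77-fold above ATPsynCF6 in sws1 and 1.59-fold in WT, the smallest in WT. The paralog's log2FC was below that of its partner in 8 pairs and above it in 2. Of the 10 paralogs, 5 were called lower, and of the 10 partners 0, where 11.5% of all genes were. With 10 genes, 0 calls cannot be told apart from that share.

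As a share of paralog plus partner per kilobase, both sws1 libraries lay below both WT libraries in 6 pairs, above both in 1 and overlapped in 3. Shares were not taken for pairs of other genes, so these counts have no background to be read against. UQCR-6.4L made up 54.0% and 66.0% of its pair in sws1 and 73.2% and 75.1% in WT, the widest gap of the 10 pairs. COX7AL made up 75.3% and 77.8% in sws1 and 82.3% and 82.6% in WT. UQCR-14L made up 77.8% and 81.9% in sws1 and 82.0% and 86.5% in WT, a gap far smaller than the spread within a genotype. The shares of COX4L (95.6% and 94.7% in sws1, 96.2% and 96.8% in WT), of COX5BL (85.4% and 87.6% in sws1, 88.2% and 88.6% in WT) and of ATPsynbetaL (11.6% and 12.1% in sws1, 13.6% and 14.2% in WT) lay below WT in both libraries as well. ATPsynCF6L went the other way, with 62.0% and 65.8% in sws1 and 61.7% and 61.0% in WT. How alike paralog and partner are in sequence was not examined, and reads of near-identical stretches could be split between them.

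**Figure D5:**
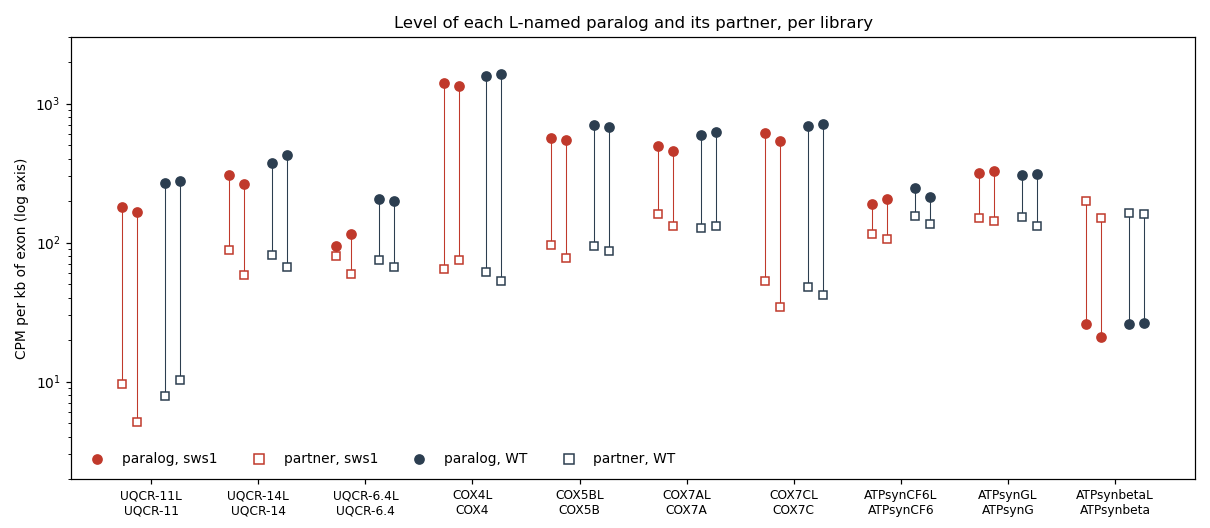
Level per kilobase of exon union, on a log axis, of each paralog ending in L (circles) and of the gene without the L (squares), joined by a line for each library, sws1 left and WT right in each pair. Circles lie above squares in 9 pairs, the lines of the UQCR-6.4 and COX7A pairs are shorter in sws1 than in WT, and the ATPsynbeta pair is turned round.

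Subunits with other symbols, cytochrome c and cytochrome c1 were followed as a list of 10 genes, all tested, of which 2 were lower and 2 higher, where 11.5% and 9.38% of all genes were, with a median log2FC of 0.04. sun, the epsilon subunit of the central stalk of complex V, had 52.7 and 54.5 CPM in sws1 and 86.5 and 73.6 CPM in WT (log2FC −0.59, SE 0.16, edgeR adjusted p = 0.0108). The share of ATPsynepsilonL in the pair with sun was 45.3% and 39.5% in sws1 and 34.0% and 32.8% in WT. Cyt-c-d, the testis cytochrome c, which in Drosophila is needed for caspase activation during spermatid individualization, had 625.3 and 632.5 CPM in sws1 and 868.1 and 875.2 CPM in WT (log2FC −0.47, SE 0.10, edgeR adjusted p = 0.00122). Its partner Cyt-c-p had 93.4 and 80.6 CPM in sws1 and 89.8 and 71.2 CPM in WT (log2FC 0.10, SE 0.16).

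The 2 genes of this list that rose encode subunits of complexes V and III. blw, the alpha subunit of the catalytic head of complex V, had 167.2 and 161.3 CPM in sws1 and 109.0 and 117.4 CPM in WT (log2FC 0.54, SE 0.13, edgeR adjusted p = 0.00433). RFeSP, the Rieske iron-sulfur protein of complex III, had 168.4 and 168.7 CPM in sws1 and 126.9 and 117.0 CPM in WT (log2FC 0.46, SE 0.13, edgeR adjusted p = 0.0115). Cyt-c1L, the paralog of cytochrome c1, had 107.3 and 89.4 CPM in sws1 and 70.7 and 88.1 CPM in WT, a log2FC of 0.32 that was not called (edgeR adjusted p = 0.154). levy, cype, ox and Cyt-c1 had log2FC between −0.26 and 0.07.

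Assembly factors of the 3 complexes had a median log2FC of −0.00 over the 12 genes found in the table, of 33 symbols listed with alternative spellings. Of the 12, 1 was lower and 1 higher, where 11.5% and 9.38% of all genes were. sloth1, which encodes a small protein needed for complex III assembly, had 18.0 and 22.7 CPM in sws1 and 45.1 and 33.7 CPM in WT (log2FC −0.98, SE 0.22, edgeR adjusted p = 0.00221). bsf, a mitochondrial RNA-binding protein, had 48.7 and 52.7 CPM in sws1 and 30.1 and 33.3 CPM in WT (log2FC 0.68, SE 0.18, edgeR adjusted p = 0.0084). Scox, Surf1 and Cox17, which help to build complex IV, had log2FC of 0.44, −0.34 and −0.30 with adjusted p of 0.156, 0.268 and 0.329 (edgeR). The 7 mitochondrially encoded complex I genes with counts had a median of −0.19, with 1 lower, mt:ND1, at 505.2 and 512.2 CPM in sws1 and 630.5 and 661.5 CPM in WT (log2FC −0.34, SE 0.10, edgeR adjusted p = 0.0155). Their sum was 2294 and 2088 CPM in sws1 and 2288 and 2648 CPM in WT, where the libraries overlapped.

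The deposited table gives counts per transcript, and 27 of the 46 genes have more than 1 transcript row. In 4 of these the 2 sws1 libraries had different leading transcripts, and in 4 the 2 WT libraries did. ATPsynepsilonL shows this, with 79 and 0 counts in sws1 and 2 and 2 in WT for one transcript (FBtr0113408), and 0 and 42 in sws1 and 0 and 0 in WT for another (FBtr0082180). Over the 75 tested transcript rows of the subunit genes, 25 in 21 genes had an unadjusted p under 0.05 in edgeR. The share of all transcripts at that threshold was not taken. At the adjusted threshold edgeR called 0 of these rows and 0% of all tested transcripts. DESeq2 on transcripts called 17 of 78 tested rows of the subunit genes lower (21.8%), each in a different gene, and 3 higher (3.85%), where 5.9% and 3.54% of all tested transcripts were called lower and higher. COX4L is an example, with 2200 and 1946 counts in sws1 and 4509 and 2781 in WT for its main transcript (FBtr0086089, DESeq2 log2FC −0.31). The other one (FBtr0335260) had 359 and 310 counts in sws1 and 386 and 250 in WT (DESeq2 log2FC 0.57).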

How the data were processed

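The authors removed ribosomal RNA, prepared directional libraries, trimmed reads with Trimmomatic, mapped them with HISAT2 and counted them on transcripts with HTSeq. The deposited values are whole-number counts per transcript, without normalization. The strand setting and annotation release are not given in the sources used here. The 29929 transcripts matched by identifier to BDGP 6.54 (Ensembl release 115) were summed per gene; 10 unmatched transcripts, at most 0.0016% of a library, were left out. The comparison of sws1 with WT used edgeR 4.0.16 in R 4.3.3 (filterByExpr, TMM, robust quasi-likelihood test), with Benjamini-Hochberg adjustment over all tested genes, called at adjusted p under 0.05 and a log2FC beyond ±0.3. Standard errors are the absolute log2FC over the square root of F. Levels between genes were divided by the length of the exon union, which can be longer than the transcript that holds most counts. The order of genes with near levels therefore depends on that length. Alternatives were DESeq2 1.42.0, other scalings, filters and thresholds, a replicate block, single libraries left out, mitochondrial genes left out of scaling, and transcripts as the unit. DESeq2 on transcripts, the paralog class with the 2 genes ending in L2, and the pairs of genes with different names were added after seeing the data. The subunit genes and lists were chosen with earlier results of these data known. Genes named are the called ones, the mitochondrially encoded ones, both genes of each pair, the most abundant canonical gene of each complex by its WT mean per kilobase and genes of the lists. The code was tested on simulated data. Having 2 libraries per genotype limits the precision, and the biological coefficient of variation was 0.106. Chi-square per degree of freedom between replicates was 4.00 in sws1 and 3.36 in WT. Tables and figures were made with pandas 2.3.3, numpy 2.4.6 and matplotlib 3.10.9.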

Additional observations from a re-analysis of the deposited data

How the results depend on the processing

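None of the 46 genes taken by symbol was called higher under any fit to genes. Of the 14 called lower, 5 stayed called in the 11 alternative fits to genes at a log2FC beyond ±0.3. blw and RFeSP, subunits outside the 46, were called higher in the test described above. Subunit genes called lower numbered 11 with DESeq2, where 994 genes were called in place of 2013, 15 with DESeq2 size factors or without a filter, 10 with upper-quartile scaling and between 7 and 14 with a library left out. In those last fits the lone library was assumed to vary like the other genotype. With an absolute log2FC above 1, 593 genes and 0 subunit genes were called, and with transcripts in edgeR 0. DESeq2 on transcripts called 3 subunit genes higher by 1 row each, ATPsynC, COX4L and COX6AL2, the last counted as canonical by the rule. The COX6AL2 row was the long transcript that shares most of its bases with Ir75d. COX4L and COX6AL2 also had another row called lower. With a library left out, canonical genes called lower ranged from 1 to 5, paralogs from 4 to 8 and mitochondrially encoded genes from 1 to 4. Paralogs called lower were 4 with DESeq2, and mitochondrially encoded genes 2 with upper-quartile scaling, which moves the median of all genes to 0.07 and the share of calls that are higher to 54.2%, in place of 44.9%. With the replicate number as a block, 15 subunit genes were called lower, 5 of them canonical, but the numbers do not pair the libraries (correlation of deviations −0.01).

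The log2FC of genes that were not called turned positive with upper-quartile scaling for UQCR-14 (0.024), UQCR-6.4 (0.031) and mt:Cyt-b (0.020). With each library left out it ran from −0.78 to 0.12 for UQCR-11, −0.36 to 0.23 for UQCR-14, −0.25 to 0.17 for UQCR-6.4, −0.081 to 0.014 for mt:Cyt-b, −0.25 to 0.076 for COX5B, −0.41 to 0.21 for COX7C, −0.078 to 0.16 for ATPsynG and −0.11 to 0.30 for ATPsynbeta. The cause of these changes was not tested. UQCR-11 had the fewest counts of the tested genes named, 39 and 19 in sws1 and 54 and 42 in WT, and a small difference in it was not detectable at this depth.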
